A study of Homo sapiens with 2 samples.

Results

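The genes described here are long noncoding and other noncoding RNA genes of C4-2 cells, chosen by their names: every gene whose symbol began with LINC, LOC and a digit, SNHG, SNOR, SCARNA, MIR and a digit, or FLJ, or ended in -AS1, -AS2 or -IT1, together with MALAT1, NEAT1 and RPPH1. They numbered 55 of the 1947 genes in the deposited table. All 55 are called noncoding RNA genes here by name, though RefSeq gives a noncoding type to only 43 of them. C4-2, a LNCaP derivative, is an established line of human prostate cancer cells, and ebastine is an antihistamine that blocks the histamine H1 receptor. Cells of passage 10 to 15, grown in RPMI-1640 with 10% serum, were left to attach for 24 hours and then given medium with vehicle or with ebastine. Polyadenylated RNA was sequenced from 1 library of vehicle-treated cells and 1 library of ebastine-treated cells. How much ebastine was given, and for how long, is not stated in the labels. With 1 library per treatment there is no spread between replicates, so every difference below is one between these libraries, with no error and no p-value computed here.

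The labelled cell type was checked on its markers as far as the table allows. Of 11 prostate luminal markers 6 were in the table, 3 higher and 3 lower with ebastine. KLK3, which encodes prostate-specific antigen, stood at 2476 FPKM in the vehicle library and 1599 FPKM in the ebastine library, and KLK2 and TMPRSS2 were also lower. FOLH1, which encodes prostate-specific membrane antigen, stood at 495 and 840 FPKM, and STEAP2 (76.9 and 121 FPKM) and ACPP (2.21 and 5.55 FPKM) were also higher. FPKM is fragments per kilobase of transcript and per unit of sequencing depth, a level that allows for gene length. The table holds only genes with a p-value under 0.05 in the authors' Cuffdiff test (0.0499 at most), 14.2% of the 13714 genes that its q-values imply were tested. None of 4 basal, 5 stromal or endothelial and 5 leukocyte markers was listed, which says nothing of their levels, since a gene outside the table can be expressed. Noncoding genes outside it were not analysed here, and each gene below was already selected for a difference.

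Noncoding RNA genes make transcripts that act, where they act, as RNA. Long noncoding RNAs can scaffold nuclear bodies, as MALAT1 does at nuclear speckles and NEAT1 in paraspeckles, or sit beside and across protein-coding genes as antisense and divergent transcripts. Others are hosts that are cut to release small RNAs, such as microRNAs, which pair through their seed with target messages, and small nucleolar and Cajal body RNAs, which guide the modification of other RNAs. RPPH1 is the catalytic RNA of ribonuclease P, the enzyme that trims the leader of transfer RNA precursors and also cuts the 3′ end of MALAT1.

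The sequences of the small and structured RNAs behind these results are given first, since the table reports them by gene name only. MIR22HG is the host transcript of microRNA 22, whose mature strands (RefSeq, GRCh38.p14, minus strand, chr17:1713914-1713935 for the 3p and chr17:1713952-1713973 for the 5p strand) are shown with the seed, bases 2 to 8, in capitals. RPPH1 (the first 300 of 333 bases) and SCARNA17 (all 144 bases) are the GENCODE 29 transcripts, shown in lower case with nothing marked.
hsa-miR-22-3p: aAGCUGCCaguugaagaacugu
hsa-miR-22-5p: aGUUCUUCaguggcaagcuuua
RPPH1: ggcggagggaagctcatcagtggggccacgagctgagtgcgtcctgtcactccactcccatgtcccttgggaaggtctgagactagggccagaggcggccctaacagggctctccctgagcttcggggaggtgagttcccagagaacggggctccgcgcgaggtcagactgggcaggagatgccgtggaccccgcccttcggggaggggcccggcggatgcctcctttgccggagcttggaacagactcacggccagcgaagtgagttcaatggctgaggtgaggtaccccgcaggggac
SCARNA17: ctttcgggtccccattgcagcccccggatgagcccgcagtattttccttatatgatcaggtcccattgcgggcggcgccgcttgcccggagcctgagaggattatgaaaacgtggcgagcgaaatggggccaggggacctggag

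Taken over all levels, 32 of the 55 genes were higher with ebastine and 23 were lower, beside 44.5% of genes higher among all those listed. A ratio here is log2 of (FPKM with ebastine + 1)/(FPKM with vehicle + 1), so a fold understates the change of a gene with few FPKM. The table's p-value limit removes small ratios, and the smallest among these genes was 0.28 in size. The median of the 55 ratios, 0.32, is therefore the ratio of a gene on the higher side of an empty interval around 0 and not a shared shift.

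**Figure D1:**
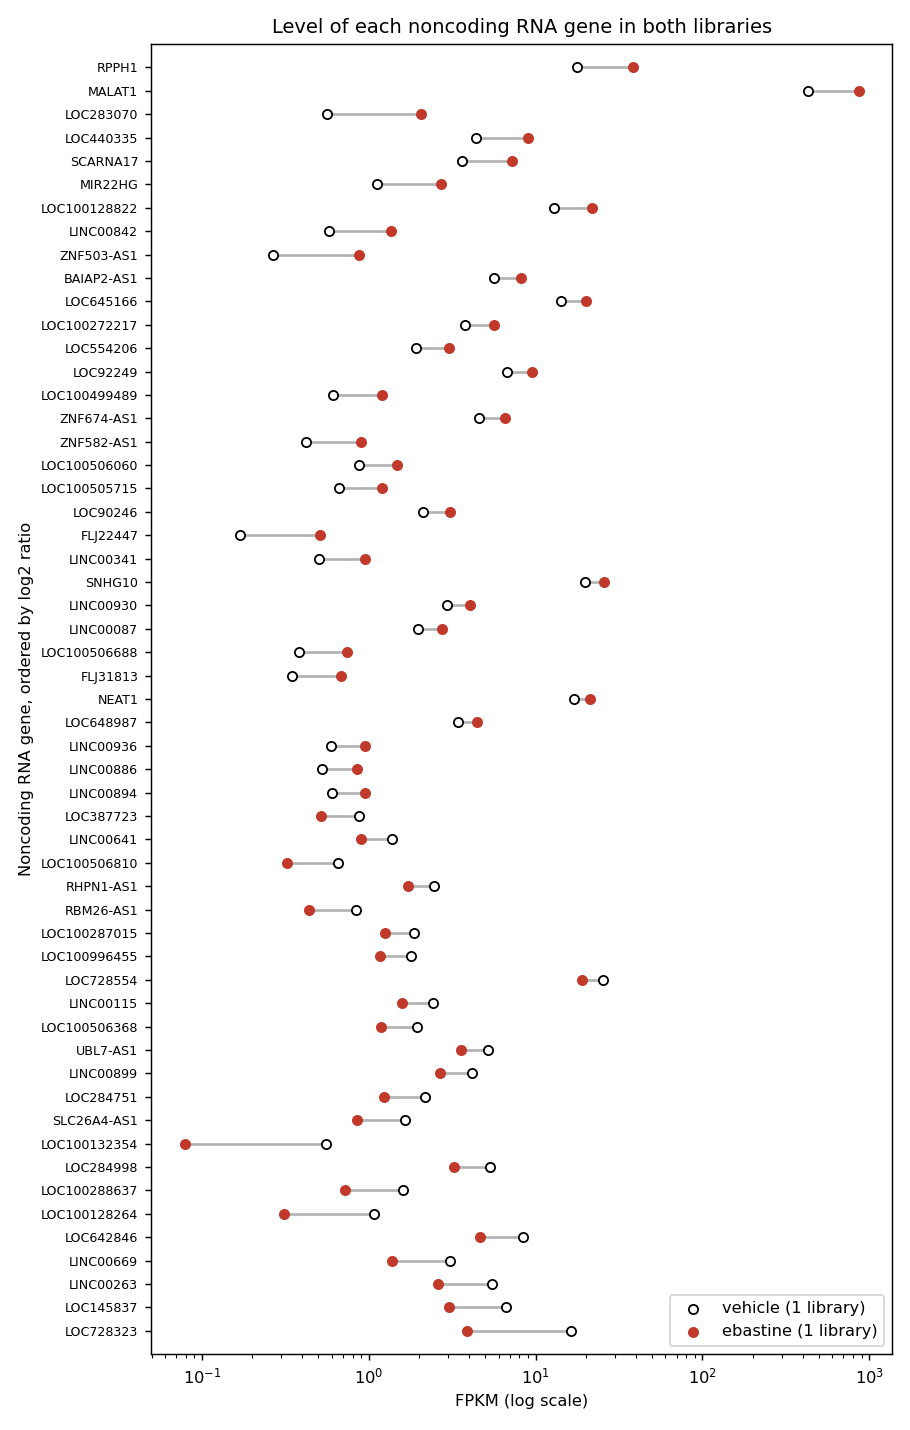
FPKM of each of the 55 noncoding RNA genes (log axis) in the vehicle library (open points) and the ebastine library (filled points), ordered by log2 ratio from RPPH1 at the top to LOC728323 at the bottom. The upper 32 genes have the filled point to the right, and the levels run from 0.0790 FPKM for LOC100132354 with ebastine to 865 FPKM for MALAT1 with ebastine.

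Most of these genes were low. Their median level, averaged over both libraries, was 2.01 FPKM, beside 10.4 FPKM for all listed genes. Of the 55, 38 averaged 1 FPKM or more, and 13 were under 1 FPKM in both libraries. Among the 38, 20 were higher and 18 lower, and 43% of the 1768 listed genes at that level were higher. At a limit of 1.5-fold, 7 of the 38 were higher (18.4%), where 9.67% of all listed genes were, and 6 were lower (15.8%), where 18.6% of all listed genes were. At 2-fold, RPPH1 and MALAT1 were higher, beside 1.81% of all listed genes, and LOC728323 was lower, beside 4.86%. A q-value below 0.05 was given by the authors' deposited table to 17 of the 55 (30.9%), 8 higher and 9 lower, beside 41% of all listed genes. That share differed with level. At a mean of 1 FPKM or more it was 39.5%, beside 42.3% of all listed genes, and under 1 FPKM 11.8%, beside 29.1%.

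The share of higher genes differed between levels, in no steady order. At a mean level of 5 FPKM or more 11 of 14 were higher (78.6%), where 41.4% of all listed genes at that level were higher. Between 1 and 5 FPKM 9 of 24 were higher (37.5%, beside 47.7% of all listed genes), and under 1 FPKM 12 of 17 were (70.6%, beside 59.2%). The 38 genes had a median log2 ratio of 0.31, beside -0.32 for all listed genes of that level. With the genes limited to the 30 that RefSeq annotates as noncoding, 14 were higher and 16 lower. Their median was -0.34, so the sign of the median rests on which names are counted. Of the 30, 5 were 1.5-fold higher or more and 5 lower (16.7% each, beside 9.67% and 18.6% of all listed genes).

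**Figure D2:**
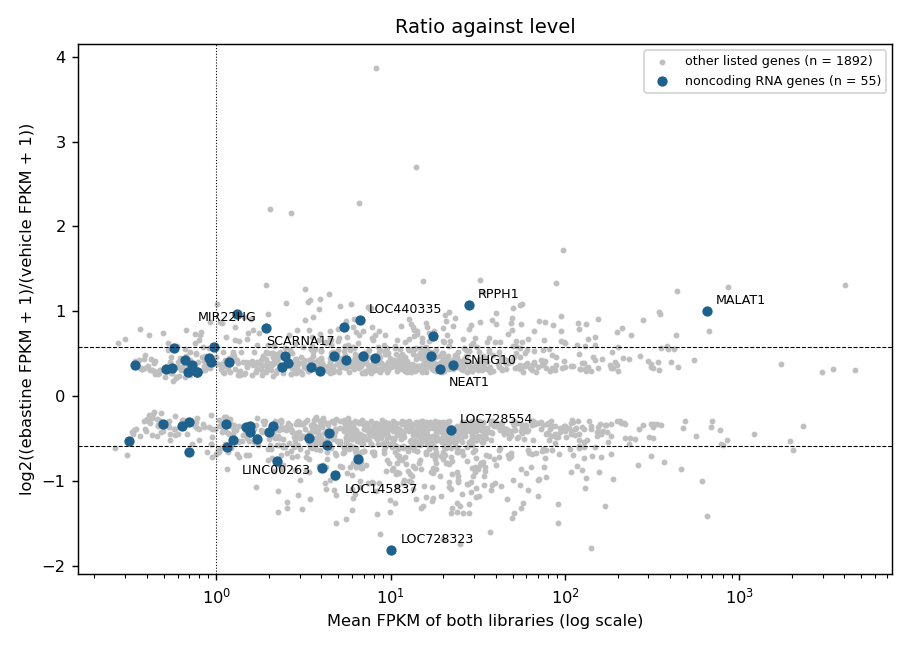
Log2 ratio of ebastine over vehicle against mean FPKM (log axis) for the 55 noncoding RNA genes (dark points) and the other 1892 listed genes (grey). Dashed lines mark 1.5-fold, the dotted line marks a mean of 1 FPKM, and the empty band around 0 is the effect of the table's p-value limit. MALAT1 lies far to the right of the other noncoding genes.

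The abundant nuclear RNAs were higher in the ebastine library. MALAT1 (hg19 chromosome 11, 65265233 to 65273939), the RNA of nuclear speckles, measured 429.9 FPKM in the vehicle library and 864.8 FPKM in the ebastine library, 2.01-fold higher, with a q-value of 0.00178 in the authors' deposited table. It was the most abundant of the 55 genes in both libraries. NEAT1, the scaffold of paraspeckles, lies 53.2 kb from MALAT1 (65190269 to 65212028). It stood at 16.9 and 21.3 FPKM, 1.24-fold higher, and the authors' deposited table gave it a q-value of 0.2097. NEAT1 makes a short polyadenylated and a long form from the same start, and the gene-level value does not separate them.

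RPPH1 had the highest ratio of the 55. The gene (chromosome 14, 20811230 to 20811570) measured 17.8 FPKM in the vehicle library and 38.6 FPKM in the ebastine library, 2.11-fold higher, with a q-value of 0.0136 in the authors' deposited table. None of the 11 protein subunits of ribonuclease P and the related ribonuclease MRP was in the table, and the same held for 16 nuclear speckle and paraspeckle proteins. Of all genes that the q-values imply were tested only 14.2% were listed, and absence says nothing of a level. RPPH1 lies 0.203 kb from PARP2, a DNA damage response enzyme read from the other strand, which stood at 31.3 and 22.4 FPKM and was 1.38-fold lower. The neighbours thus differed in opposite directions. Whether the counting used strand is not recorded in the labels, so reads of overlapping or adjoining genes on opposite strands may not have been told apart.

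SCARNA17, a Cajal body RNA that guides modification of spliceosomal RNAs, was the only small nucleolar or Cajal body RNA gene by name among the 55. It measured 3.64 FPKM in the vehicle library and 7.18 FPKM in the ebastine library, 1.76-fold higher, yet the authors' deposited table gave it a q-value of 0.261. The reported locus (chromosome 18, 47340393 to 47340813) spans 0.421 kb, the same length as the RefSeq gene. The GENCODE transcript printed above is shorter, at 144 bases, so it need not be the whole RNA measured. Proteins of small nucleolar ribonucleoproteins were sought by 11 symbols, with SNU13 also under its older name NHP2L1. Only the methyltransferase FBL was listed, beside 14.2% of the genes that the q-values imply were tested. FBL was 1.26-fold lower (246.7 and 196 FPKM). RPPH1, MALAT1 and SCARNA17 are known to end without the usual poly(A) tail, and the library is labelled as polyadenylated RNA. The longest run of A in the GENCODE transcripts was 13 bases in MALAT1, 4 in SCARNA17 and 2 in RPPH1.

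Of 3 host genes of small RNAs, 2 were higher and 1 was lower. MIR22HG (chromosome 17, 1614798 to 1619566) measured 1.12 FPKM in the vehicle library and 2.71 FPKM in the ebastine library, 1.75-fold higher, with a q-value of 0.0246 in the authors' deposited table. The table measures the host transcript, and the mature strands printed above were not measured. SNHG10, the host of the Cajal body RNA SCARNA13, stood at 19.7 and 25.6 FPKM, 1.29-fold higher, with a q-value of 0.196 in the authors' deposited table. LINC00669, now named MIR924HG as a microRNA host, stood at 3.07 and 1.39 FPKM and was 1.70-fold lower, with a q-value of 0.00178 in the authors' deposited table. Of 17 symbols for genes of microRNA processing none was listed, beside 14.2% of the genes that the q-values imply were tested. They include DROSHA, DICER1 and the Argonautes, each Argonaute under an older and a current name, so fewer genes than symbols were sought.

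Lower long noncoding RNAs included genes with a known place in prostate cells or beside a gene of lipid synthesis. LOC145837, now named DRAIC for its downregulation in androgen-independent prostate cancer cells, measured 6.62 FPKM in the vehicle library and 3.01 FPKM in the ebastine library, 1.90-fold lower, with a q-value of 0.00178 in the authors' deposited table. Its reported locus spans 108 kb, 11.1 times the length of the RefSeq gene, and can include other genes. LINC00263, now OLMALINC (chromosome 10, 102133333 to 102148116), stood at 5.48 and 2.59 FPKM, 1.80-fold lower, with a q-value of 0.00723 in the authors' deposited table. It lies 8.75 kb from SCD, the stearoyl-CoA desaturase, which differed the other way and stood at 261 and 616 FPKM.

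Of the 12 genes named LINC, 7 were higher and 5 lower. The 5 with a mean under 1 FPKM were all higher, and of the 7 at 1 FPKM or more 5 were lower and 2 higher. Besides OLMALINC and MIR924HG, the lower members were LINC00899 (4.17 and 2.67 FPKM), LINC00115 (2.44 and 1.58 FPKM) and LINC00641 (1.37 and 0.894 FPKM). LINC00930 (2.96 and 4.04 FPKM) and LINC00087 (1.97 and 2.77 FPKM) were the higher ones at that level. LINC00842, at 0.577 and 1.35 FPKM, was the low member to which the authors' deposited table gave a q-value below 0.05, namely 0.0136. The other 4 low members, LINC00341, LINC00886, LINC00894 and LINC00936, lay between 0.505 and 0.604 FPKM with vehicle and between 0.852 and 0.949 FPKM with ebastine.

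Antisense genes divided evenly. Of the 8 named -AS1, 4 were higher and 4 lower, and no gene ending in -AS2 or -IT1 was listed. With the pseudocount of 1 FPKM none reached 1.5-fold, beside 9.55% higher and 17.2% lower by 1.5-fold among all listed genes. Without it ZNF503-AS1 was 3.31-fold and ZNF582-AS1 2.15-fold higher, and SLC26A4-AS1 1.92-fold and RBM26-AS1 1.89-fold lower. The rest stayed under 1.5-fold. BAIAP2-AS1, which starts 241 bases from BAIAP2 in GENCODE and is now called a divergent transcript, stood at 5.64 and 8.23 FPKM, 1.39-fold higher, with a q-value of 0.0146 in the authors' deposited table. ZNF674-AS1, which starts 36 bases from the zinc finger gene ZNF674, stood at 4.61 and 6.53 FPKM, 1.34-fold higher. ZNF503-AS1 stood at 0.266 and 0.881 FPKM and ZNF582-AS1 at 0.419 and 0.902 FPKM, both higher. SLC26A4-AS1, at the gene of the anion exchanger pendrin, stood at 1.64 and 0.856 FPKM, 1.42-fold lower, with a q-value of 0.00723 in the authors' deposited table. Its reported locus spans 61.3 kb, 11.6 times the length of the RefSeq gene, and can include other genes. UBL7-AS1 (5.22 and 3.59 FPKM), RHPN1-AS1 (2.47 and 1.73 FPKM) and RBM26-AS1 (0.835 and 0.441 FPKM) were also lower.

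Most protein-coding partners were outside the table, which holds 14.2% of the genes that its q-values imply were tested. By older or current name, 14 of the 55 genes carry the name of a partner, and 3 of the 14 partners were in the table, all 3 higher together with their noncoding partner. BAIAP2, a membrane-bending adaptor protein, stood at 26.6 and 33.9 FPKM, ZNF674 at 1.02 and 1.66 FPKM, and the plasma membrane calcium pump ATP2B1 at 11.3 and 18.8 FPKM. The partner of ATP2B1 is LINC00936, now ATP2B1-AS1, at 0.597 and 0.949 FPKM, and their reported loci lie 52.9 kb apart. The partners of lower genes, SLC26A4, UBL7, RHPN1, RBM26, HTR5A, MCPH1 and FZD4, were outside the table and no value of theirs was used. The same held for EOLA2, ANXA2R, ZNF503 and ZNF582, partners of higher genes. The q-values of the 3 listed partners from the authors' deposited table were 0.00178 for ATP2B1, 0.23 for BAIAP2 and 0.145 for ZNF674.

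Genes that carry only a LOC number were the largest class, 27 of the 55, with 13 higher and 14 lower. LOC728323, now LINC01881 at the end of chromosome 2 (243030844 to 243102469), measured 16.2 FPKM in the vehicle library and 3.91 FPKM in the ebastine library, 3.51-fold lower, the lowest ratio of the 55. The authors' deposited table nonetheless gave it a q-value of 0.283. RefSeq types LOC728323 as a long noncoding RNA, but GENCODE types it as a transcribed pseudogene, whose reads can be split or misplaced. LOC642846 (8.41 and 4.63 FPKM, 1.67-fold lower) and LOC284998, now LINC01114 (5.33 and 3.26 FPKM, 1.49-fold lower), had q-values of 0.0346 and 0.0136 in the authors' deposited table. LOC284751, now LINC01270, was 1.42-fold lower at 2.17 and 1.23 FPKM. LOC100128264, now HTR5A-AS1 at a serotonin receptor gene, stood at 1.08 and 0.313 FPKM, and its reported locus is 4.53 times the length of the RefSeq gene.

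Among higher LOC genes, LOC283070 (chromosome 10, 12875133 to 12877545) measured 0.563 FPKM in the vehicle library and 2.05 FPKM in the ebastine library, 1.95-fold higher with the pseudocount and 3.65-fold without it, with a q-value of 0.00178 in the authors' deposited table. It matched no entry of RefSeq and lies 3.40 kb from CAMK1D, a calcium-dependent kinase gene that was 1.72-fold higher. LOC100128822, now LINC01003, stood at 13.0 and 21.8 FPKM, 1.63-fold higher, with a q-value of 0.00178 in the authors' deposited table. LOC92249, now LINC01278, was 1.37-fold higher at 6.72 and 9.59 FPKM, and LOC100272217 was 1.38-fold higher at 3.78 and 5.62 FPKM. Both FLJ genes, FLJ22447 and FLJ31813, were higher and under 1 FPKM in both libraries.

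Some of the names no longer mark a noncoding gene. Of the 52 genes matched to RefSeq (GRCh38.p14), 43 are noncoding there, 5 are transcribed pseudogenes and 4 are protein coding. LOC440335, at 4.37 and 9.0 FPKM and 1.86-fold higher, is now SMIM22, a small membrane protein, with a q-value of 0.0219 in the authors' deposited table. LINC00087 and LOC387723 are now SMIM10L2B and C10orf143. LINC00341 is listed as an older name of SYNE3, but its reported locus is 2.82 kb long and the RefSeq gene 109 kb, so that match is uncertain. The pseudogenes LOC645166 (14.2 and 20.1 FPKM) and LOC554206 (1.92 and 3.04 FPKM) were higher. LOC728554 was lower (25.4 and 19 FPKM). LOC100288637 stood at 1.60 and 0.721 FPKM, 1.51-fold lower, with a q-value of 0.00178 in the authors' deposited table. This pseudogene is 1 of the 6 genes past the 1.5-fold limit on the lower side. Its locus overlaps ARHGAP11B, which was 1.56-fold lower. Pseudogenes share sequence with their parent genes, so their reads can be split or misplaced. For 7 of the 55 genes the reported locus was over 1.5 times the RefSeq gene length. These were SLC26A4-AS1, LOC145837, LOC728554, LOC100128264, LINC00894, LINC00842 and LOC440335.

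Listed neighbours were compared next, since many of these genes lie beside coding genes. Within 100 kb of 21 of the 55 genes lay at least 1 other listed gene, which gave 32 pairs, 25 of them (78.1%) in the same direction. Over all listed genes 344 of 535 such pairs (64.3%) had the same direction. Pairs that share a gene are not independent, and MIR22HG alone accounts for 5. Around MIR22HG the neighbours TLCD2 (2.07 and 3.38 FPKM), WDR81, a protein of endosome maturation (5.06 and 7.34 FPKM), and RILP, an effector of the lysosomal GTPase RAB7 (8.32 and 12.8 FPKM), were higher, as were SCARF1 and SLC43A2. The ratios of the 5 neighbours ran from 0.35 to 0.57 on the log2 scale, below the 0.81 of MIR22HG. The 3 listed neighbours of MALAT1, NEAT1, FRMD8 and EHBP1L1, had ratios from 0.29 to 0.32, below its 1.01.

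The 7 pairs in opposite directions included LINC00263 with SCD, RPPH1 with PARP2, and LOC100506368, now FZD4-DT, with PRSS23. PRSS23, a secreted serine protease, stood at 4.48 and 10.3 FPKM, while FZD4-DT stood at 1.94 and 1.18 FPKM. LOC145837, with its wide locus, lies near KIF23, a mitotic kinesin that was 2.01-fold lower (17.7 and 8.33 FPKM), and near the ribosomal protein gene RPLP1, which was 1.24-fold higher. LINC00641 was lower (1.37 and 0.894 FPKM) like HNRNPC, the splicing factor gene 2.24 kb away, which stood at 276 and 196 FPKM.

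**Figure D3:**
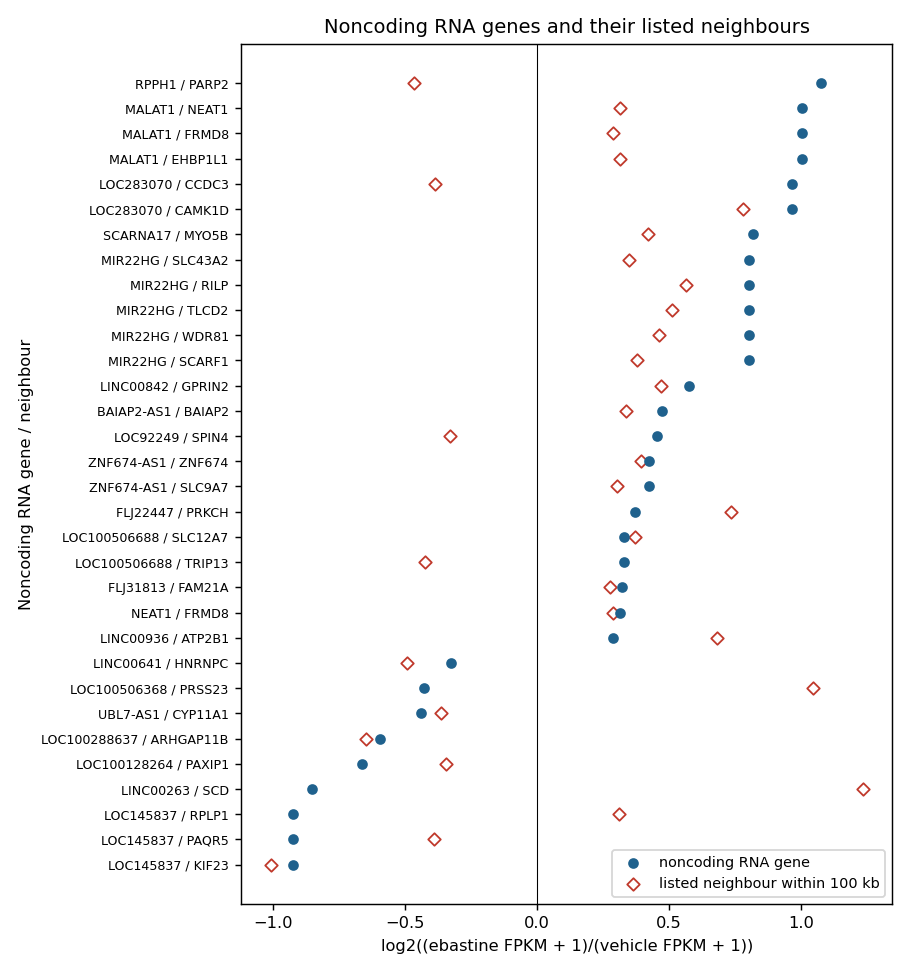
Log2 ratio of ebastine over vehicle for each noncoding RNA gene (filled points) and each listed gene within 100 kb of it (open diamonds), 1 pair per line. In 25 of 32 pairs both lie on the same side of 0, and LINC00263 with SCD is among the 7 that do not.

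The promoters of MIR22HG, MALAT1 and LINC00263 are printed because the first lies among higher neighbours, the next is the most abundant RNA of the set, and the last differed in the direction opposite to SCD beside it. RefSeq windows of 300 bases run from 250 before to 50 after the annotated start, in GRCh38.p14. They are chr17:1716161-1716460 on the minus strand for MIR22HG, chr11:65497488-65497787 and chr11:65498795-65499094 on the plus strand for the annotated starts of MALAT1, and chr10:100373326-100373625 on the plus strand for LINC00263. Capitals mark matches, on either strand, to the E-box CACGTG, the hypoxia response core ACGTG (contained in that E-box), the TATA box TATAAA, the CCAAT box, the cell cycle element TTTGAA or the antioxidant response core TGACNNNGC.
MIR22HG: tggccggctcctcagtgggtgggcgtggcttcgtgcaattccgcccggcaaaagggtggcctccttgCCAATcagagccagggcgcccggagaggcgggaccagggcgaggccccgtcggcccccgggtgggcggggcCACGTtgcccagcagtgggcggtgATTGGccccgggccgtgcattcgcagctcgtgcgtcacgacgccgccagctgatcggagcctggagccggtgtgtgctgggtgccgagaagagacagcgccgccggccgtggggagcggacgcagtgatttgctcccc
MALAT1, first start: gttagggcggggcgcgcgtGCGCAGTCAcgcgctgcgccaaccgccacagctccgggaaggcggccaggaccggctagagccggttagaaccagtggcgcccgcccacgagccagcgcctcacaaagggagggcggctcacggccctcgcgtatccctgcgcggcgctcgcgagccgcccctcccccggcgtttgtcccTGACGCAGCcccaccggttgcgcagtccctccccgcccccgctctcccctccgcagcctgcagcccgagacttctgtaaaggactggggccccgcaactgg
MALAT1, second start: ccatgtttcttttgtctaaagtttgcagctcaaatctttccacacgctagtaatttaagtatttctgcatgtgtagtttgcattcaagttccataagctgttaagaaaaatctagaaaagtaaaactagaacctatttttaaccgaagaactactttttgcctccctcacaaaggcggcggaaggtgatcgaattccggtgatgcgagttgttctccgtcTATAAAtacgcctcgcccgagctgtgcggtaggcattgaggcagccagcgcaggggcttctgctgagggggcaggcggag
LINC00263: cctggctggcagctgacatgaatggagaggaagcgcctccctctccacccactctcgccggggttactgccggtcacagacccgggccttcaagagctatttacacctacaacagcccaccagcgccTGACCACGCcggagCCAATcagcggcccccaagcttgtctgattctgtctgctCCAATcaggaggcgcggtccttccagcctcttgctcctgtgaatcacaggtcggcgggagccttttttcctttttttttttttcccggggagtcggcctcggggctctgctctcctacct

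Promoter windows were found for 37 of the 55 genes. The TATAAA match of MALAT1 lies in the window of its second start. MIR22HG holds CCAAT on both strands and ACGTG, and LINC00263 holds CCAAT and TGACNNNGC. ACGTG was in the windows of 12 of the 37 genes (32.4%), beside 21.4% of all 35116 windows, and these were 10 of the 21 higher and 2 of the 16 lower genes. CCAAT was in 13 of the 37 (35.1%, beside 34.6%), 5 higher and 8 lower, and CACGTG in 2 (5.41%, beside 7.26%), both higher. TATAAA and TGACNNNGC were in 7 genes each (18.9%, beside 11.5% and 13.3%), and TTTGAA in 4 (10.8%, beside 15.2%). Genes with more than 1 annotated start were searched in each window, which raises the share per gene. A start of C followed by at least 4 pyrimidines, the mark of terminal oligopyrimidine messages that many snoRNA host genes carry, was in 0 of the 37, SNHG10 included, and in 4.07% of all windows. The median GC content was 62% in these genes and 58.7% over all windows.

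Gene structure was read from GENCODE 29 for the 33 genes it names. Of these 11 have a single exon in their longest transcript, MALAT1, NEAT1 and RPPH1 among them, and the median transcript length was 2626 bases, from 144 for SCARNA17 to 22743 for NEAT1. Of the 33, 10 start in GENCODE within 1000 bases of a protein-coding start on the other strand, 7 of them higher and 3 lower, beside 32 of all 55 genes higher. The GENCODE model need not be the one measured. LINC00936 starts 341 bases from ATP2B1 in GENCODE, but their reported loci lie 52.9 kb apart.

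Other known noncoding RNA genes were sought as a list of 41 names. Most are outside the naming rule, but some, such as OIP5-AS1 and TPT1-AS1, end in -AS1 and are within it. H19 and DANCR were in the table, and DRAIC was there under its LOC number, beside 14.2% of the genes that the q-values imply were tested. The imprinted RNA H19 measured 2.87 FPKM in the vehicle library and 1.33 FPKM in the ebastine library, 1.66-fold lower, with a q-value of 0.00178 in the authors' deposited table. DANCR, a host of small nucleolar RNAs, stood at 349 and 459 FPKM, 1.32-fold higher, with a q-value of 0.0865 in the authors' deposited table. GAS5, TUG1, PCA3 and PCGEM1 were outside the table.

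The counts of higher and lower genes depended on how the libraries were scaled. Multiplying the ebastine values by 1.26 in effect, to centre listed genes averaging 10 FPKM or more on 0 (a shift of 0.34 on the log2 scale), gave 20 of 38 noncoding RNA genes at least 1.5-fold higher and 2 lower, and it moved all listed genes to 42.8% higher and 6.11% lower. Rescaling to equal upper quartiles (a factor of 1.15) gave 13 higher and 4 lower, beside 24.4% and 10.4% of all listed genes. The direction of the 13 genes past the 1.5-fold limit was not put to a test by these alternatives. The largest shift, 0.34, is smaller than the log2 of 1.5, and a change of pseudocount cannot reverse a direction. Among smaller ratios LOC100506810, LINC00641 and LOC387723 turned from lower to higher after centring, to between 0.0094 and 0.032.

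**Figure D4:**
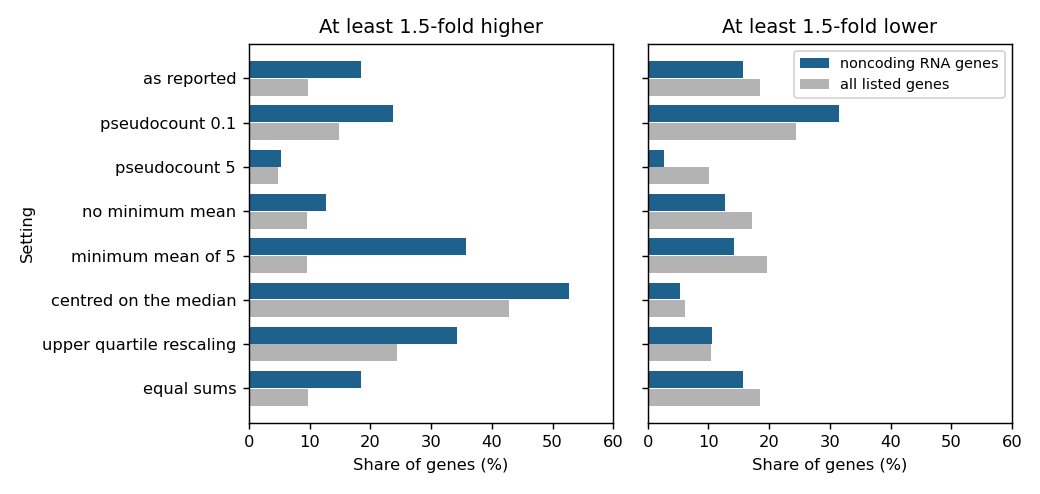
Share of noncoding RNA genes (dark bars) and of all listed genes (grey bars) at least 1.5-fold higher (left) or lower (right) with ebastine, under each pseudocount, minimum level and scaling tried. After centring 20 of 38 noncoding RNA genes are at least 1.5-fold higher (52.6%, beside 42.8% of all listed genes). With a pseudocount of 5 FPKM 2 are (5.26%, beside 4.75%).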

How the data were processed

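RNA sequencing of polyadenylated RNA from 1 vehicle-treated and 1 ebastine-treated library of C4-2 cells gave 1 deposited table, matched to samples through the library letters in the labels. Per the submitters' processing notes, which give no versions, TopHat2 and Cuffdiff were used with hg19. Gene models, strand setting and scaling are not stated there. The table holds FPKM values scaled by the authors, the authors' log2 fold change, the authors' Cuffdiff test score (not used), and deposited p-values and q-values, which compare these libraries and not the conditions. Depth is unknown, since the table gives no counts, so no counting interval is given.

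Members were found by name in Python 3.11.15 with pandas 2.3.3. Locus starts count from 0 (the locus length then equals the RefSeq gene length for 25 of the 52 genes matched, against 1 otherwise) and were converted. Ratios used a pseudocount of 1 FPKM, and calls a mean of at least 1 FPKM and 1.5-fold. Values are printed in full for MALAT1, NEAT1, RPPH1, members past 1.5-fold, members with a deposited q-value under 0.05, the highest of each class and small classes. The counting was tested on simulated data. The members, lists and motifs were chosen with earlier results of these data known. Alternatives were other pseudocounts, minimum levels, scalings, fold limits and member sets. RefSeq (GRCh38.p14) and GENCODE 29 were used for names, gene types, gene lengths and structure, neighbouring starts and sequences only.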

Additional observations from a re-analysis of the deposited data

How the results depend on the processing

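The count of 7 noncoding RNA genes at least 1.5-fold higher was 2 with a pseudocount of 5 FPKM (5.26%, beside 4.75% of all listed genes). It was 20 after centring (52.6%, beside 42.8%) and 13 after upper quartile rescaling (34.2%, beside 24.4%). At a limit of 2-fold it was 2 (5.26%, beside 1.81%). Among genes averaging 5 FPKM or more it was 5 of 14 (35.7%, beside 9.56%). The count of 6 lower was 12 (31.6%, beside 24.4%) and 1 (2.63%, beside 10.1%) with pseudocounts of 0.1 and 5 FPKM. It was 2 after centring (5.26%, beside 6.11%) and 1 at 2-fold (2.63%, beside 4.86%). Among genes averaging 5 FPKM or more it was 2 of 14 (14.3%, beside 19.7%). The other alternatives left both counts within 1.5 times. The median log2 ratio of 0.31 was 0.35 and 0.15 with pseudocounts of 0.1 and 5 FPKM, 0.32 with no minimum mean, 0.64 after centring, 0.46 among genes averaging 5 FPKM or more and 0.48 after upper quartile rescaling. It was -0.34 over genes noncoding in RefSeq, 0.32 without the gene whose locus overlaps another, and 0.33 without the genes of wide locus, an alternative chosen after seeing the data. No replicate could be left out, depth is unknown, and low genes carry counting error that cannot be given. No paired analysis was possible because each treatment has 1 library.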

Other observations

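HOXB-AS5, an antisense gene of the HOXB cluster that the naming rule does not take, measured 26.5 FPKM in the vehicle library and 15.0 FPKM in the ebastine library, a log2 ratio of -0.78, with a q-value of 0.00334 in the authors' deposited table; it was chosen after its values were seen. RPPH1, MALAT1 and SCARNA17, which end without the usual poly(A) tail, had ratios without a pseudocount of 2.17, 2.01 and 1.97, and this grouping was made after their values were seen.

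LOC100132354, now LINC01512, measured 0.553 FPKM in the vehicle library and 0.0790 FPKM in the ebastine library, 7.01-fold lower without the pseudocount and 1.44-fold lower with it, and the authors' deposited table gave it a q-value of 0.111. No listed gene lay within 100 kb of it.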
